A study of Mus musculus with 8 samples.

Results

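The effect of deleting BAF250a was compared between the germinal vesicle (GV) stage and metaphase II (MII) of mouse oocytes, as the difference between the knockout effects at these stages. All 54838 gene entries of the deposited count table were used, from all 8 libraries of the series, and the 15572 genes with enough reads were tested. For each gene the stage difference is the log2 ratio of knockout to control at MII minus the same ratio at GV. It equals the change from GV to MII in knockout oocytes minus that change in control oocytes. A negative value means that the transcript was relatively lower in knockout MII oocytes than its knockout effect at GV would give.

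The 4 groups were GV and MII oocytes of C57BL/6 mice with the genotypes wildtype and BAF250aGKO, 2 libraries each, made from total RNA of 5 to 10 oocytes per library. The knockout was made with Gdf9-cre, so the recombinase is driven by a promoter that is active in oocytes of growing follicles, and the somatic cells of the follicle keep the gene. Oocytes were pooled within a library, and nothing in the labels says that the libraries came from separate animals, so the spread behind each p-value is that between libraries and may be technical. The headers give both control MII columns the same name, so these are called a and b in arbitrary order.

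BAF250a, the protein of Arid1a, is the subunit through which the BAF chromatin remodelling complex contacts DNA. This complex uses ATP to move nucleosomes and open regulatory DNA. A GV oocyte is arrested in the first meiotic prophase and holds a large store of maternal mRNA. When it is fully grown its transcription stops, and meiotic maturation to MII then proceeds on stored mRNA, some of which is translated and some of which is degraded. Changes in mRNA stability and in poly(A) tail length are known to reshape the pool in this period.

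Reads in genes ranged from 19587421 to 33289150 per library. With library sizes scaled as below, 3 reads, the limit that a count of 0 allows, correspond to 0.0894 to 0.170 CPM, read counts normalised to depth. CPM of single genes are scaled by trimmed mean of M values and are relative to each library's total, so mRNA per oocyte was not measured. The strand setting of the counting was not stated in the labels or headers, and reads of antisense and overlapping genes may be mixed. Values below are CPM in each library, and log2 differences are given ± SE from the edgeR quasi-likelihood fit with Benjamini-Hochberg adjusted p-values over all tested genes.

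Arid1a itself was low in knockout oocytes at both stages. It was at 380 and 458 CPM in control and 4.87 and 12.9 in knockout oocytes at GV, and 1617 and 1293 CPM in control and 33.0 and 21.7 in knockout oocytes at MII. The knockout values lay far below control at each stage without overlap. The stage difference was -0.18 ± 0.59 (adjusted p = 0.98) and turned positive without 1 library: it was 0.0083 without control MII library a, 0.69 without knockout GV library 2 and 0.15 without knockout MII library 2. Arid1b, which encodes the alternative ARID1 subunit, was at 123 and 142 CPM in control and 166 and 154 in knockout oocytes at GV, and 65.6 and 60.6 CPM in control and 34.6 and 29.8 in knockout oocytes at MII. It was thus slightly higher than control in both knockout libraries at GV and lower in both at MII, and the stage difference of -1.24 ± 0.36 did not pass (adjusted p = 0.23).

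The knockout effect differed between the stages for 13 of the 15572 tested genes, 0.0835% of them. The 1 gene with a positive stage difference (0.00642%) was Vps39, and the 12 with a negative one (0.0771%) included the ribosomal protein genes Rpl3 and Rps4x and the metabolic enzyme gene Got1. At an unadjusted p below 0.05 there were 616 higher genes (3.96%) and 1171 lower genes (7.52%). For the single stages, which are the linear parts of this contrast and share its libraries, at GV the knockout had 93 genes higher (0.597%) and 61 lower (0.392%). At MII 265 were higher (1.7%) and 535 lower (3.44%). The median stage difference over all tested genes was -0.14, with quartiles of -0.90 and 0.60.

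These calls lay close to the threshold: 12 of the 13 had an adjusted p of 0.0458 or 0.04996. The median SE of a stage difference was 0.916, and the smallest called difference was 3.13 in size. No gene was called when either control GV library, 1 or 2, was left out, where 1462 and 1157 genes had an unadjusted p below 0.05 by edgeR. On all 8 libraries limma-voom called 0 genes with 1730 at an unadjusted p below 0.05, and DESeq2 called 111 higher and 244 lower. Leaving out control MII library a gave 0 higher and 4 lower genes, with 3 and 15 without b, 3 and 6 without the knockout GV library 1, and 0 and 2 without its replicate 2. They were 2 and 21 without the knockout MII library 1, and 2 and 6 without its replicate 2. Rpl3 was called in 6 of these 8 fits and the other 12 genes in 0 to 3 of them. None of the 13 changed sign in any of the alternatives run.

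**Figure D1:**
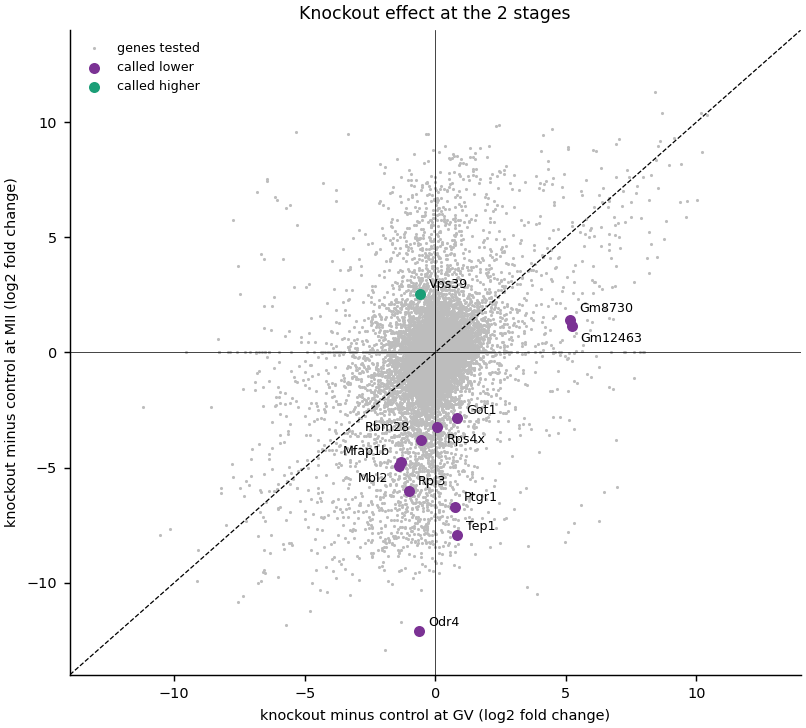
Knockout effect at GV (x axis, log2) against the effect at MII (y axis, log2) for 15572 tested genes (grey), with 12 genes called in the stage difference in colour; the dashed line marks equal effects. Vps39 lies above the line, and the 11 lower genes shown lie below it, 9 of them with knockout MII called below control. Points of genes with a group at 0 reads, Odr4 and Tep1 included, are fitted values of uncertain size.

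Vps39 encodes a subunit of the HOPS complex, which tethers late endosomes and lysosomes before they fuse (mm10 chromosome 2, 120316461 to 120353137, minus strand). It was at 134 and 107 CPM in control and 69.6 and 91.0 in knockout oocytes at GV, and 32.9 and 34.0 CPM in control and 240 and 150 in knockout oocytes at MII. The knockout libraries were below control at GV and above control at MII, with no overlap at either stage. The stage difference was 3.13 ± 0.44 (adjusted p = 0.0458). From GV to MII Vps39 fell in control oocytes (-1.85 ± 0.31) and rose in knockout oocytes (1.28 ± 0.31). It was the only one of the 13 genes with a called rise in knockout oocytes.

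Rpl3 encodes a protein of the large ribosomal subunit near the peptidyl transferase centre (chromosome 15, 80077791 to 80091868, minus strand). Rpl3 was at 107 and 101 CPM in control and 49.5 and 53.8 in knockout oocytes at GV, and 16.4 and 12.1 CPM in control and 0.238 and 0.189 in knockout oocytes at MII. Knockout libraries were lower at both stages, and at MII they held 13 reads in all against 792 in control. The stage difference was -5.01 ± 0.48 (adjusted p = 0.0142), made up of -1.01 ± 0.29 at GV, which was not called, and -6.01 ± 0.40 at MII (adjusted p = 0.000139).

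Rps4x, an X-linked gene for a protein of the small subunit (chromosome X, 102184941 to 102189394, minus strand), did not separate the genotypes at GV. It was at 867 and 637 CPM in control and 1002 and 584 in knockout oocytes at this stage, ranges that overlap. At MII it was at 26.7 and 27.6 CPM in control and 2.89 and 2.91 in knockout. The stage difference was -3.30 ± 0.46 (adjusted p = 0.0458). The transcript fell with maturation in both genotypes, with log2 changes of -4.79 ± 0.36 in control and -8.09 ± 0.43 in knockout oocytes.

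Got1 encodes the cytosolic aspartate aminotransferase of the malate-aspartate shuttle (chromosome 19, 43499752 to 43524605, minus strand). Got1 was at 25.99 and 40.5 CPM in control and 57.2 and 61.2 in knockout oocytes at GV, and 51.0 and 50.4 CPM in control and 8.49 and 5.66 in knockout oocytes at MII. It was above control at GV and far below it at MII. The stage difference was -3.67 ± 0.49 (adjusted p = 0.0458), and the level fell with maturation in knockout oocytes (-3.06 ± 0.36) but had no called change in control (0.61 ± 0.33).

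Rbm28 and Mfap1b were below control at GV and further below it at MII, without overlap at either stage. Rbm28, a nucleolar RNA-binding protein gene (chromosome 6, 29123576 to 29165006, minus strand), was at 49.5 and 65.6 CPM in control and 42.5 and 36.5 in knockout oocytes at GV, and 97.5 and 94.7 CPM in control and 8.58 and 5.13 in knockout oocytes at MII, a stage difference of -3.26 ± 0.47 (adjusted p = 0.0458). Mfap1b, one of a pair of near-identical genes for a spliceosome-associated protein (chromosome 2, 121460235 to 121474067, minus strand), was at 96.1 and 101 CPM in control and 31.4 and 48.2 in knockout oocytes at GV, and 171 and 164 CPM in control and 4.32 and 8.003 in knockout oocytes at MII. Its stage difference was -3.46 ± 0.49 (adjusted p = 0.0458). Its copy Mfap1a had a stage difference of -0.43 ± 0.46 (adjusted p = 0.79). How the authors' counting divided reads between the copies is not stated in the labels, which leaves both values uncertain.

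Mbl2, which encodes a mannose-binding lectin of the complement system (chromosome 19, 30232942 to 30239687, plus strand), was below control at both stages and more so at MII. Mbl2 was at 375 and 315 CPM in control and 121 and 142 in knockout oocytes at GV, and 40.5 and 76.1 CPM in control and 2.15 and 1.66 in knockout oocytes at MII. The stage difference was -3.54 ± 0.48 (adjusted p = 0.0458), with -1.39 ± 0.33 at GV, not called, and -4.93 ± 0.39 at MII (adjusted p = 0.000315).

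The processed pseudogenes Gm12463 and Gm8730 had the opposite start and were called higher in knockout oocytes at GV. Gm12463 (chromosome 4, 44752277 to 44753125, minus strand) was at 3.16 and 1.59 CPM in control and 95.2 and 81.9 in knockout oocytes at GV, and 1.69 and 1.75 CPM in control and 3.28 and 4.42 in knockout oocytes at MII. Gm8730 (chromosome 8, 102864845 to 102865798, minus strand) was at 5.76 and 6.37 CPM in control and 255 and 177 in knockout oocytes at GV, and 0.5 and 1.06 CPM in control and 2.41 and 1.81 in knockout oocytes at MII. For both pseudogenes knockout GV stood alone, and at MII the knockout effect was not called (1.16 ± 0.41 and 1.42 ± 0.41). The stage differences were -4.07 ± 0.58 (adjusted p = 0.0458) and -3.73 ± 0.55 (adjusted p = 0.04996). Processed pseudogenes can share reads with their parent genes, so these values are uncertain.

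Ptgr1, Tep1 and Odr4 had at most 1 read in knockout MII oocytes. Odr4 (chromosome 1, 150361305 to 150393080, minus strand) was at 3.30 and 8.67 CPM in control and 2.27 and 5.45 in knockout oocytes at GV and 17.8 and 25.3 CPM in control oocytes at MII, with 0 reads in both knockout MII libraries against 1227 in control MII. Against the floor of 3 reads per library, the ratio of knockout to control was at least 137-fold lower at MII than at GV. Odr4 was the only one of the 12 lower genes with a called rise from GV to MII in control oocytes (1.85 ± 0.67, adjusted p = 0.0457).

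Tep1, a gene for a protein of the telomerase and vault particles (chromosome 14, 50824059 to 50870560, minus strand), was at 14.3 and 16.6 CPM in control and 27.53 and 27.51 in knockout oocytes at GV and 1.62 and 0.793 CPM in control oocytes at MII, with 0 reads in knockout MII against 66 in control MII. Its ratio was at least 21.2-fold lower at MII than at GV. Ptgr1, a prostaglandin and leukotriene reductase gene (chromosome 4, 58965439 to 58987119, minus strand), was at 27.1 and 34.1 CPM in control and 59.0 and 44.4 in knockout oocytes at GV and 2.92 and 1.55 CPM in control oocytes at MII, with 1 read in knockout MII against 123 in control MII. The fitted stage difference of Ptgr1 was -7.46, and the counting error of that 1 read alone gives an exact 95% Poisson interval of -13.13 to -5.35.

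**Figure D2:**
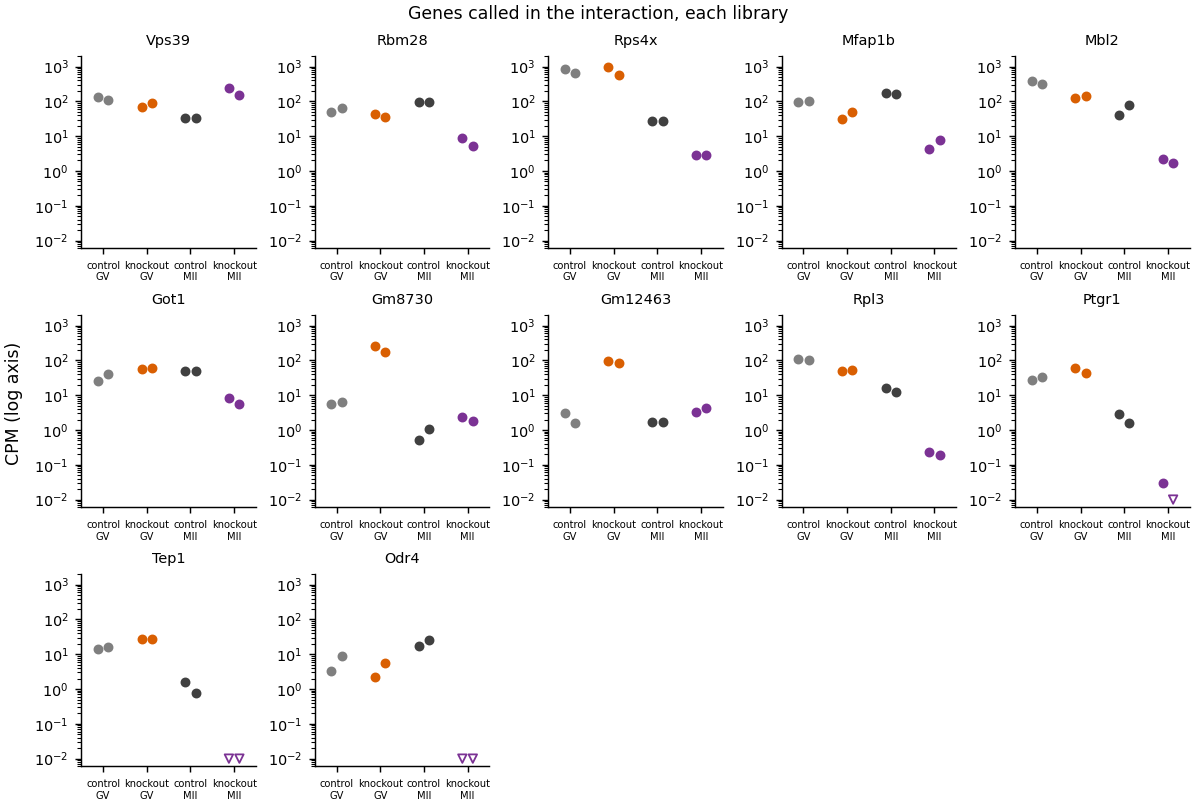
CPM on a log axis in each of the 8 libraries for 12 genes with a called stage difference, ordered from the highest to the lowest fitted difference; filled points are single libraries and open triangles mark libraries with 0 reads, drawn at the bottom of the axis. Vps39 is highest in knockout MII, Gm12463 and Gm8730 stand out in knockout GV, and Rpl3, Ptgr1, Tep1 and Odr4 reach their lowest levels in knockout MII.

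Among the 12 lower genes, 10 were called lower in knockout than control at MII and 3 were called higher at GV. All 12 fell with maturation in knockout oocytes, and 7 of them also fell in control oocytes. Over all tested genes 29.1% were called lower and 19.9% higher at MII than at GV in knockout oocytes, and 27.9% lower and 21.2% higher in control oocytes. A further 17 genes with a positive and 61 with a negative stage difference had an adjusted p between 0.05 and 0.1. Of these 61, 53 were called lower at MII and 8 were called higher at GV. The single contrasts are parts of the stage difference by which all these genes were selected. A low knockout MII, a high knockout GV and a fall in knockout oocytes are therefore favoured by the selection. These counts are not independent evidence, and the shares over all tested genes are no test of them. Libraries differed in how many tested genes they lacked altogether: at GV 199 had 0 reads in both control libraries and 239 in both knockout libraries, and at MII these numbers were 961 and 1325. Of the 1171 genes lower at an unadjusted p below 0.05, 307 had 0 reads in knockout MII. Of the 616 higher genes, 159 had 0 reads in control MII, a similar share. Reads in genes numbered 33289150 and 28846136 in knockout and 26005880 and 29740748 in control MII libraries. The part of these absences in the called differences was not tested.

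Genes for cytoplasmic ribosomal proteins, the structural proteins of the translating ribosome, had the lowest median stage difference of the 29 functional lists with all 8 libraries. Of the 79 genes listed, 78 were tested. Rpl3 and Rps4x were the 2 called lower and none was called higher. At an unadjusted p below 0.05, 42 (53.85%) were lower and 0 higher, beside 7.52% and 3.96% of all tested genes. The median stage difference was -1.54 against -0.14 over all tested genes, and it ranged from -1.89 to -1.06 over the alternatives run. It was the lowest of the 29 in 12 of 17 alternatives. Mitochondrial mRNAs were lower with limma-voom (-1.65 against -1.61), without control GV library 1 (-2.98 against -1.89) and, with extracellular matrix genes, without knockout MII library 2 (-1.31 and -1.28 against -1.21) or knockout GV library 1 (-1.24 and -1.52 against -1.06). Without control GV library 2, extracellular matrix genes were lower (-1.38 against -1.18). Of the 78 genes, 70 had a negative value, and the whole span ran from -5.01 for Rpl3 to 4.29 for Rps10.

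The knockout effect on these genes lay mainly at MII. The median log2 ratio of knockout to control was -0.11 at GV, where 1 gene was called lower, and -1.71 at MII, where 34 were called lower and 0 higher. In 65 of the 78 genes (83.3%) both knockout MII libraries lay below both control MII libraries, and in 2 genes (2.56%) both lay above. Over all tested genes these shares were 24.7% and 21.7%. At GV the shares were 10.3% below and 0% above for ribosomal protein genes, and 23.8% and 22.6% over all tested genes. The median CPM of these 78 genes at GV was 370 and 206 in control and 359 and 197 in knockout libraries 1 and 2. That spread within each genotype makes overlap at GV likely, so the GV shares do not measure the size of the effect there.

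Their level fell with maturation in both genotypes and further in the knockout. Summed over the list, ribosomal protein transcripts took 41580 and 27560 CPM in control and 31180 and 23530 in knockout oocytes at GV. At MII they took 3227 and 3547 CPM in control and 2354 and 1475 in knockout oocytes. The GV groups overlapped in this sum and the MII groups did not. The fall from GV to MII was called for 74 of 78 genes in control and 72 of 78 in knockout oocytes, beside 27.9% and 29.1% of all tested genes, with medians of -3.57 and -5.09. Such sums weigh the abundant genes, and Rplp0, among the most abundant, had a stage difference of only -0.66 ± 0.64 (adjusted p = 0.76).

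Both subunits showed the same course. For the 46 large-subunit genes the median was -0.13 at GV and -1.29 at MII, with 22 lower at unadjusted p in the stage difference. For the 32 small-subunit genes it was -0.08 at GV and -1.99 at MII, with 20 lower. Below the called pair, Rps27a, which encodes a ubiquitin fusion, was at 324 and 197 CPM in control and 454 and 219 in knockout oocytes at GV, and 19.4 and 17.9 CPM in control and 2.50 and 2.91 in knockout oocytes at MII (-3.15 ± 0.54, adjusted p = 0.0685). Rpl7, Rps19 and Rpl10a, chosen like Rps27a after their values were seen, had stage differences of -3.86 ± 0.68, -3.85 ± 0.69 and -3.11 ± 0.58, none passing. Rps10 went the other way on few reads, with MII means of 0.0165 CPM in control and 0.282 in knockout oocytes. Many ribosomal protein genes have processed pseudogenes that can take part of their reads, so single values are uncertain.

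**Figure D3:**
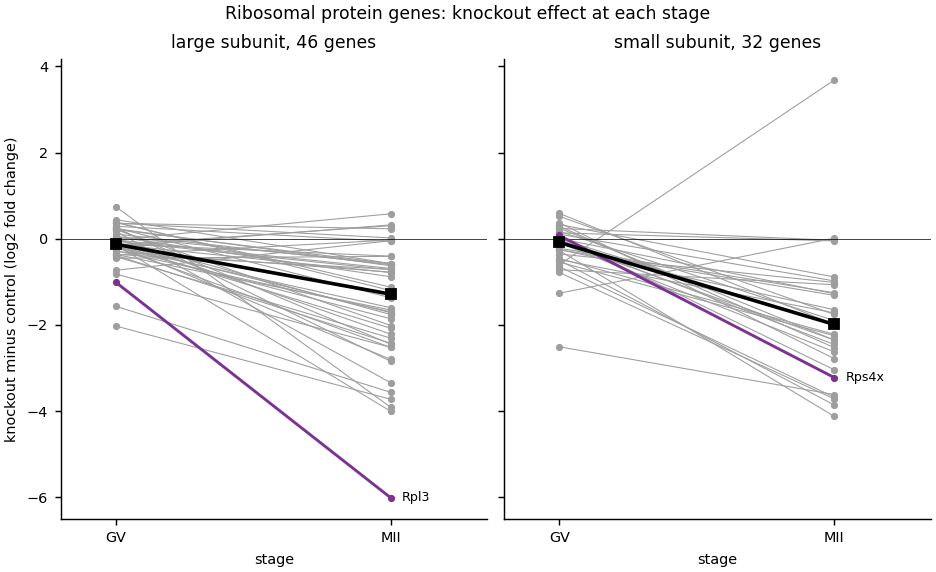
Knockout minus control (log2) at GV and at MII for 46 large-subunit and 32 small-subunit ribosomal protein genes; each line is 1 gene, purple marks the called Rpl3 and Rps4x, and black squares give the median. The medians lie near 0 at GV and at -1.29 and -1.99 at MII.

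Ribosomal protein genes are short, and exon length was therefore set beside them. It is the length of all annotated exons of a gene merged, which can exceed that of any single transcript. The median exon length of the ribosomal protein genes was 1775 bases, and 61 of the 78 were in the shortest quartile of protein-coding genes (up to 2709 bases). The 3188 other genes of that quartile had a median stage difference of -0.12, beside -0.14 over all tested genes, and 9.19% of them were lower at unadjusted p. Of all genes in the shortest quartile 9.94% were lower and 5.39% higher, and of those in the longest 6.66% were lower and 2.28% higher. Their median stage differences were -0.15 and -0.17. The part of length in the ribosomal protein result was not tested.

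The medians of most other lists depended on single libraries. For 25 of the 29 lists, all but ribosomal proteins, extracellular matrix, histone modifiers and the p53 list, leaving out 1 library moved the median by over 1.5 times or to the other sign. Proteasome genes went from -0.46 to -0.10 without knockout MII library 2 and to -0.13 without knockout GV library 1. Without that same GV library the nuclear-encoded oxidative phosphorylation list went from -0.39 to -0.10 and the maternal-effect list from -0.36 to -0.10. Without control MII library b the cholesterol list went from -0.80 to -0.29 and the piRNA list from -0.40 to -0.02. The medians given for these 25 lists therefore describe all 8 libraries together. Counts at unadjusted p in the lists below stand beside 7.52% lower and 3.96% higher over all tested genes.

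Other parts of the translation apparatus had medians nearer to that of all genes. Among 51 translation factors, 8 were lower (15.7%) and 1 higher (1.96%) at unadjusted p, the median was -0.25, and none was called. Eef2, the elongation factor that translocates the ribosome, was at 237 and 201 CPM in control and 226 and 181 in knockout oocytes at GV, and 26.9 and 34.7 CPM in control and 6.05 and 6.38 in knockout oocytes at MII. The GV libraries of Eef2 overlapped and the MII libraries did not (-2.20 ± 0.38, adjusted p = 0.0685). Eef1g, an elongation factor subunit chosen after its values were seen, had -3.14 ± 0.55 (adjusted p = 0.0685). Of 62 nucleolar and ribosome biogenesis genes 6 were lower (9.68%) and 3 higher (4.84%) at unadjusted p, near the shares over all tested genes. Their median of -0.15 was positive in 3 of 17 alternatives. Nop2, an rRNA methyltransferase gene, had 533, 347 and 115 reads in control GV, knockout GV and control MII and 0 in knockout MII, a ratio at least 13.98-fold lower at MII than at GV that did not pass (adjusted p = 0.0685). Among 74 genes for mitochondrial ribosomal proteins 10 were lower (13.5%) and 2 higher (2.70%) at unadjusted p, with a median of -0.42. Mrpl36 had 705, 412, 109 and 1 reads in the same order of groups.

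The 13 mRNAs of the mitochondrial genome, which encode subunits of the respiratory chain, all had a negative stage difference, with a median of -1.08, and none was called. Their summed level was 4164 and 853 CPM in control and 1994 and 3326 in knockout oocytes at GV, and 55370 and 63890 CPM in control and 24910 and 36950 in knockout oocytes at MII. At MII the knockout libraries lay below control in the sum and in 12 of 13 single mRNAs, beside 24.7% of all tested genes. At GV the sums of the knockout libraries lay between those of the control libraries. The median was -0.29 when control GV library 2 was left out and -2.98 when library 1 of that group was, so those libraries decide its size. mt-Co2, a cytochrome c oxidase subunit, had the smallest p: 2.37 and 1.17 CPM in control and 2.49 and 2.02 in knockout oocytes at GV, and 82.9 and 88.6 CPM in control and 30.3 and 52.9 in knockout oocytes at MII (-1.40 ± 0.59, adjusted p = 0.40). At MII mitochondrial genes took 6.03% and 6.93% of all reads in control and 3.03% and 4.41% in knockout oocytes. The share of small RNA and rRNA genes was 0.968% and 1.11% in control against 0.585% and 0.823% in knockout. That class holds the miRNA gene Gm23935, at 0.442% and 0.528% in control and 0.0392% and 0.1001% in knockout MII. The gap of this 1 gene is about as large as that of the whole class. Mitochondrial rRNA and tRNA genes are counted in both shares. Whether RNA capture differed between these libraries was not tested.

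Nuclear-encoded subunits of oxidative phosphorylation had a median of -0.39 over 77 genes. At unadjusted p 10 were lower (12.99%) and 1 higher (1.30%), and none was called. Ndufs8, a complex I subunit, had 2006, 1294 and 124 reads in control GV, knockout GV and control MII and 0 in knockout MII (at least 15.8-fold lower, adjusted p = 0.073). Glycolysis and tricarboxylic acid cycle genes had 1 called member, Got1, among 48, and a median of -0.45. At unadjusted p 11 were lower (22.9%) and 1 higher (2.08%). Aldoa, the glycolytic aldolase, was at 714 and 291 CPM in control and 725 and 446 in knockout oocytes at GV, and 58.9 and 66.2 CPM in control and 7.45 and 1.66 in knockout oocytes at MII (-3.99 ± 0.86, adjusted p = 0.12). Ldhb, a lactate dehydrogenase subunit, was the member on the other side, at 1191 and 939 CPM in control and 3152 and 1676 in knockout oocytes at MII (1.45 ± 0.54, adjusted p = 0.35). Aldoa and Ldhb were chosen after their values were seen. Cholesterol synthesis genes had a median of -0.80 over 25 genes, or -0.53 counting groups at 0 reads as being at the floor. At unadjusted p 5 (20%) were lower and 0 higher. Pmvk, a mevalonate pathway kinase, had 93, 61, 86 and 0 reads in control GV, knockout GV, control MII, then knockout MII (adjusted p = 0.17).

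Extracellular matrix and protease genes had a median of -1.42 over 39 tested genes, or -1.31 counting groups at 0 reads as being at the floor, which touches 13 of them. Over the alternatives it ran from -1.52 without knockout GV library 1 to -0.88 with a mean of at least 5 CPM. At unadjusted p 14 were lower (35.9%) and 1 higher (2.56%), and none was called. Of the 51 genes in the list, those that pass the read filter only through control MII have a negative value by construction. The count of lower members therefore depends partly on the filter. Pxdn, whose peroxidase links collagen IV chains, had the smallest p and was high in the knockout at both stages. It was at 0.186 and 0.461 CPM in control and 124 and 80.0 in knockout oocytes at GV, and 3.35 and 2.68 CPM in control and 94.6 and 64.3 in knockout oocytes at MII. Its knockout effect was 8.26 ± 0.54 at GV and 4.72 ± 0.44 at MII, a stage difference of -3.54 ± 0.62 (adjusted p = 0.0685). From GV to MII Pxdn rose in control (3.18 ± 0.49, adjusted p = 0.000499) and had no called change in knockout oocytes (-0.36 ± 0.37).

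Of the 14 lower members 5 had 0 reads in knockout MII. Those described next were chosen after their values were seen. Serpinh1, the collagen chaperone, had 62, 22, 543 and 1 reads in control GV, knockout GV, control MII, then knockout MII. Timp1, an inhibitor of metalloproteinases, had 22, 9, 910 and 0 reads, and Col18a1, a basement membrane collagen, had 71, 6, 429 and 0. Lamb2, a laminin chain, had 816, 895, 67 and 2 reads, so it had fallen with maturation in control oocytes as well.

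Markers of follicle and blood cells are given beside these matrix genes. Of 31 granulosa and cumulus markers in the table, 7 had 0 reads in each of the other groups and 15 in knockout MII. Their summed level was 177 and 136 CPM in control and 70.8 and 91.4 in knockout oocytes at GV, and 186 and 188 CPM in control and 132 and 104 in knockout oocytes at MII. At MII the largest counts in this sum were those of Cyp19a1 (3755 reads in knockout against 4500 in control) and Nr5a2. The sum therefore says little about the other members. The defining granulosa marker Fshr had 0 reads in control MII and in knockout MII, while Inha had 863 reads in control MII and 92 in knockout MII. Ptx3 and Tnfaip6, genes of the expanding cumulus matrix, had 41 and 1 reads in knockout MII libraries against 194 and 154 in control ones. Others in that list were higher in knockout MII, among them Nr5a2 (2506 against 1505 reads), Kitl (330 against 65) and Has2 (72 against 17). Of the 21 granulosa and cumulus markers tested, 16 had a lower and 4 a higher mean CPM in knockout at GV, and the same numbers held at MII, so these markers were mostly lower at both stages. Their stage differences were negative for 14 and positive for 7. A marker that passes the read filter only through control MII has a negative value by construction. This count of signs therefore depends on the filter and is not a test of the list. Of 34 blood and immune markers, 14 had 0 reads in control MII and 20 in knockout MII, with sums of 118 and 221 CPM and of 86.8 and 94.7 CPM. At GV those sums were 107 and 106 CPM in control and 55.4 and 96.8 in knockout. Ptprc had 0 reads in all groups, Cd52 had 412 reads in control MII and 0 in knockout MII, and Cd74 had 1095 and 0. Ms4a1 (4974 against 3548 reads), Cd68 (223 against 166) and Laptm5 (237 against 129) were higher in knockout MII. Ms4a1 had the most reads of the blood and immune markers in both MII groups and makes up most of their sum in knockout MII. Of the 15 tested blood and immune markers, 10 had a negative and 5 a positive stage difference, a count with the same dependence on the read filter. Endothelial and epithelial markers went the other way in their sum, at 98.05 and 100.5 CPM in control and 180.6 and 165.1 in knockout oocytes at MII, where Epcam had 113 reads in control and 5257 in knockout. The rise in this sum rests on Epcam alone. Of the 10 endothelial and epithelial markers tested, 5 had a negative and 5 a positive stage difference. All single markers named here were chosen after their values were seen. Their part in the matrix genes' stage difference was not tested, and in pooled oocytes fewer cells of a type and less RNA per cell cannot be told apart. The 16 oocyte identity markers, all with reads in every group, had a median stage difference of -0.38.

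**Figure D4:**
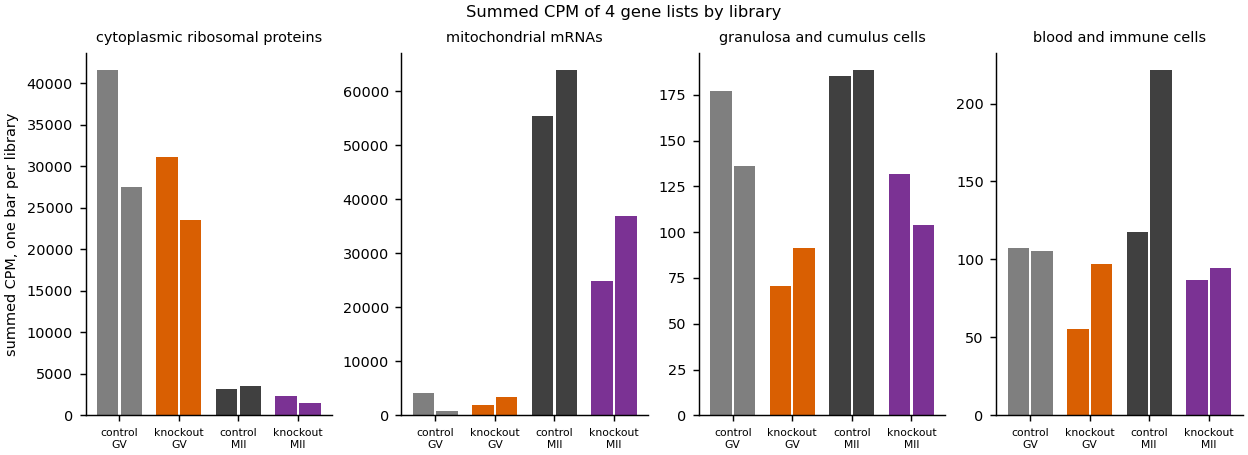
Summed CPM of 4 gene lists, with 1 bar per library in control GV, knockout GV, control MII, then knockout MII. Ribosomal protein sums fall with maturation and are lowest in knockout MII (2354 and 1475), mitochondrial mRNA sums rise with maturation and are lower in knockout MII than in control MII, and marker sums of granulosa and cumulus cells and of blood and immune cells are lower in knockout MII than in control MII. At MII the granulosa and cumulus sums rest largely on Cyp19a1 and Nr5a2, and the blood and immune sums of knockout MII rest largely on Ms4a1.

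Lists of the oocyte's own machinery had medians closer to that of all genes and no called member. The median was -0.43 over 22 zona pellucida and secreted factor genes, -0.36 over 39 maternal-effect genes, -0.35 over 25 oocyte transcription factors and -0.31 over 62 genes of maternal mRNA storage and clearance. It was -0.26 over 60 meiotic cell cycle genes and -0.31 over 83 spindle and kinetochore genes. Tacc3, which stabilises spindle microtubules, was at 1006 and 1237 CPM in control and 1793 and 1068 in knockout oocytes at GV, and 7.04 and 7.83 CPM in control and 1.22 and 2.45 in knockout oocytes at MII (-2.38 ± 0.54, adjusted p = 0.13). Cd9, the egg membrane protein needed for sperm fusion, was at 86.7 and 105 CPM in control and 97.6 and 98.0 in knockout oocytes at GV, and 7.69 and 11.6 CPM in control and 3.66 and 1.96 in knockout oocytes at MII (-1.80 ± 0.50, adjusted p = 0.22). For both genes the knockout MII libraries lay below control while the GV libraries overlapped.

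Nlrp5, a component of the subcortical maternal complex, went the other way: 907 and 1855 CPM in control and 1327 and 1173 in knockout oocytes at GV, and 198 and 168 CPM in control and 543 and 233 in knockout oocytes at MII (1.23 ± 0.62, adjusted p = 0.48). It was 0.49 without knockout MII library 1 and 0.62 without control GV library 2. Wee1, a kinase that inhibits Cdk1, had a stage difference of -3.46 ± 1.26 on 429, 619, 121 and 19 reads (adjusted p = 0.34), and -6.26 without knockout MII library 1. Figla, which drives zona gene transcription in growing oocytes, had 1516, 1230, 34 and 4 reads in control GV, knockout GV, control MII, then knockout MII (-3.00 ± 0.95, adjusted p = 0.27), and its value was -1.76 without control MII library a. Edc3, a decapping enhancer, had 112, 42, 73 and 0 reads (adjusted p = 0.25). For the 40 genes of cohesin, condensin and meiotic axis the median was 0.01, with a sign that turned in 5 of 17 alternatives. Ncapd3, a condensin subunit, was at 29.5 and 16.1 CPM in control and 62.8 and 63.5 in knockout oocytes at GV, and overlapped between genotypes at MII (-1.52 ± 0.46, adjusted p = 0.25).

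Chromatin genes gave no called stage difference either. Among 27 tested BAF and PBAF subunits the median was -0.15, and it changed sign when scaled by library totals alone (0.06), a scaling that moved the median over all tested genes by 0.21. This list also holds Brd9, Bicra and Bicral of the related ncBAF complex. Of the 27 genes 2 (7.41%) were lower at unadjusted p, Arid1b among them. Histone modifiers had a median of -0.37 over 79 genes with 7 lower (8.86%) and 0 higher at unadjusted p. The lower share is near that of all tested genes (7.52%). Sirt2, a deacetylase of tubulin and histones, had 856, 891, 25 and 0 reads in control GV, knockout GV, control MII, then knockout MII (adjusted p = 0.17). Other chromatin remodellers had a median of -0.26 over 52 genes. Mbd3, a subunit of the NuRD complex, was at 251 and 253 CPM in control and 186 and 190 in knockout oocytes at GV, and 44.2 and 49.2 CPM in control and 84.0 and 77.9 in knockout oocytes at MII. The order of the genotypes reversed between stages for Mbd3 (1.22 ± 0.34), which did not pass (adjusted p = 0.22). RNA polymerase II and Mediator genes had a median of -0.28 over 42 genes, with 5 lower (11.9%) and 1 higher (2.38%) at unadjusted p. Med8, a Mediator subunit, was at 94.0 and 94.7 CPM in control and 145 and 110 in knockout oocytes at GV, and 17.5 and 23.4 CPM in control and 0.715 and 3.55 in knockout oocytes at MII (-3.71 ± 0.77, adjusted p = 0.10).

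The remaining lists had no called member. The median was -0.46 over 40 proteasome genes, where Psmd10 had -1.67 ± 0.57 (adjusted p = 0.30), and -0.43 over 52 unfolded protein and heat shock genes, where the chaperone gene Hsph1 had -1.84 ± 0.43 (adjusted p = 0.15). It was -0.40 over 32 piRNA and small RNA genes, where Xpo5, the exporter of pre-miRNAs, had -1.40 ± 0.48 (adjusted p = 0.30). It was -0.32 over 54 p53 and DNA damage genes, where Topbp1, an activator of the ATR kinase, had -3.03 ± 0.68 (adjusted p = 0.13), and -0.27 over 48 nuclear pore and lamina genes. Nup133, a nuclear pore subunit, had 398, 424, 16 and 0 reads in control GV, knockout GV, control MII, then knockout MII (adjusted p = 0.17).

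Glutathione and antioxidant genes were mixed, with 5 lower (12.2%) and 3 higher (7.32%) at unadjusted p among 41. Their median of -0.38 turned positive in 2 of 17 alternatives. Gss, glutathione synthetase, had 389, 266, 56 and 0 reads in control GV, knockout GV, control MII, then knockout MII (adjusted p = 0.093). Prdx2, a peroxiredoxin chosen after its values were seen, was at 280 and 292 CPM in control and 873 and 1363 in knockout oocytes at MII, while its GV libraries overlapped (1.58 ± 0.58, adjusted p = 0.35). Lysosome genes had a median of -0.03 over 41 genes, with a sign that turned in 7 of 17 alternatives. Ctsl, the protease cathepsin L, was at 8.59 and 7.38 CPM in control and 6.06 and 12.02 in knockout oocytes at GV, and 22.7 and 33.7 CPM in control and 0.715 and 0.0755 in knockout oocytes at MII. The GV libraries of Ctsl overlapped and knockout MII was far lower (-6.28 ± 1.06, adjusted p = 0.0685).

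Actin and asymmetric division genes had a median of -0.08 and a mean of 0.04 over 52 genes, which differ in sign, and the median was positive in 2 of 17 alternatives. Pak3, a kinase that acts on the actin skeleton, was at 1.07 and 0.629 CPM in control and 2.49 and 0.0413 in knockout oocytes at GV, and 0 and 0.264 CPM in control and 28.6 and 35.5 in knockout oocytes at MII (7.27 ± 1.88, adjusted p = 0.19). Without control MII library b the value was 12.09 and without knockout GV library 1 it was 12.04. It was the member with the widest gap between knockout MII and all other libraries. Replication-dependent histone genes have mRNAs that end in a stem-loop in place of a poly(A) tail. Their list, which also holds the non-histone genes Slbp, Lsm10 and Lsm11, had a median of 0.18 over 23 tested genes. It was -0.28 counting groups at 0 reads as being at the floor. The median had the other sign in 4 of 17 alternatives and ran from -0.54 without knockout MII library 1 to 0.69 without knockout GV library 1. Hist1h4i had 139, 199, 114 and 0 reads in control GV, knockout GV, control MII, then knockout MII (adjusted p = 0.073).

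**Figure D5:**
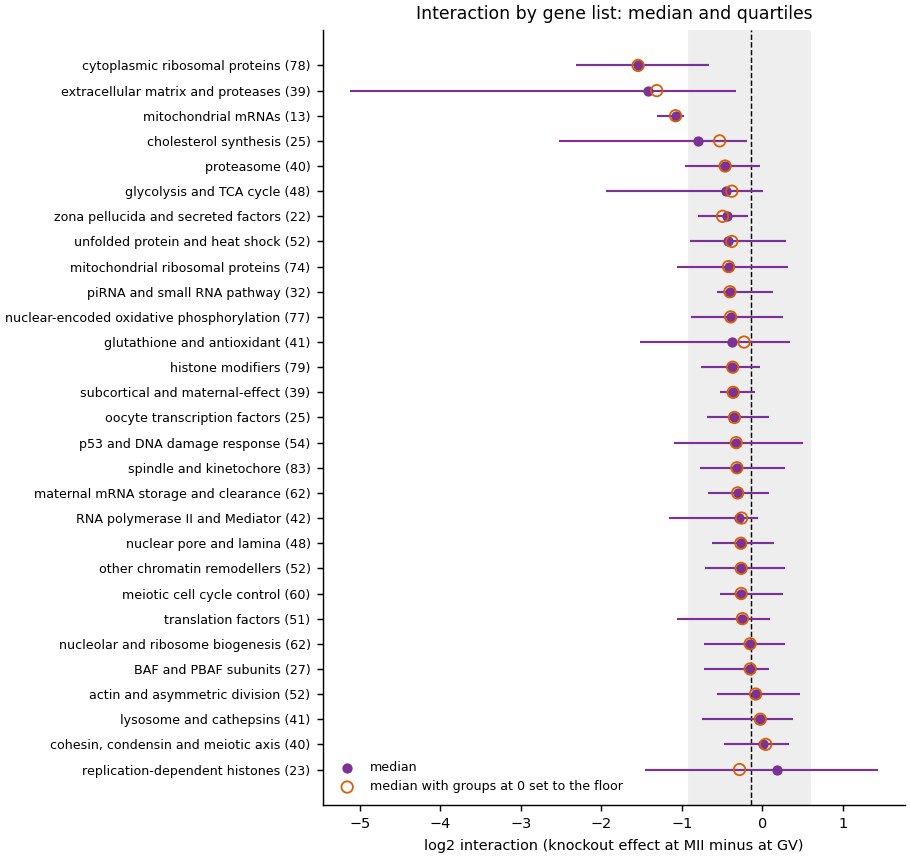
Median log2 stage difference (filled points) with quartiles (lines) for 29 functional gene lists, numbers of tested genes in brackets; open circles give the median counting groups at 0 reads as being at the floor of 3 reads per library, the dashed line the median of all tested genes (-0.14) and the grey band their quartiles. The medians of 25 lists lie below the dashed line, with ribosomal proteins (-1.54) and extracellular matrix genes (-1.42) lowest.

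Genes were also described by class. Processed pseudogenes had a median of -0.47 over 636 tested genes, with 2 called lower and 54 lower (8.49%) and 21 higher (3.30%) at unadjusted p. Their share of all reads was 0.238% and 0.234% in control against 0.416% and 0.361% in knockout oocytes at GV, and 0.108% and 0.127% against 0.145% and 0.146% at MII. Protein-coding genes had a median of -0.15 over 12981 genes, with 1 called higher and 10 lower. Long intergenic noncoding RNAs, at 0.07 over 832 genes, and antisense transcripts, at 0.32 over 382, had no called member and medians above that of all genes. Gm23935, annotated as a miRNA gene and chosen after its values were seen, took 0.442% and 0.528% of reads in control MII, 0.0392% and 0.1001% in knockout MII and at most 0.00169% at GV (-3.81 ± 0.79, adjusted p = 0.10).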

How the data were processed

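Total RNA libraries of pooled oocytes were sequenced, 2 in each of 4 groups. The deposited values are counts of reads per Ensembl gene, which the authors made by aligning to mm10 with Bowtie2 and counting with HTSeq, per the submitters' processing notes, which also name edgeR. Tool versions, annotation release, strand setting and filters were not given in the sources used here. Every count was a whole number. The 5 summary entries, 22% to 35.13% of a library's reads, stayed out of all sizes and tests, and 0 value columns were left unused. GENCODE M21 (mm10) gave symbol, position and biotype for 54809 of 54838 identifiers.

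The fit used edgeR 4.0.16 under R 4.3.3: filterByExpr on the 4 groups (15572 genes), trimmed mean of M values scaling, 1 term per group over all 8 libraries (4 residual and 6.3 prior degrees of freedom, common biological coefficient of variation 0.507), and the two-sided quasi-likelihood F-test with Benjamini-Hochberg adjustment over all tested genes at 0.05. SE is the log2 value divided by the square root of F. Where a group had 0 reads, the fold is a bound against a floor of 3 reads per library, which covers counting error only. The procedure was tested on simulated data before use. Replicate columns of a group differed by a chi-square per gene of 52.8 to 117, far above sampling noise, so no column was counted as a duplicate.

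Lists hold 1576 symbols, 1570 of them in the table, in 29 functional and 6 marker lists, and were described by counts and medians only. The members and lists were chosen with earlier results of these data known. Named genes are the called genes, up to 12 in each direction (6 where a group is at the floor), the called members or else the smallest p of each list, and Arid1a and Arid1b; others are said to be chosen after their values were seen. Of the 13 called genes, 1 is not reported here. Alternatives used library totals, DESeq2 size factors, upper-quartile scaling, DESeq2 1.42.0, limma-voom 3.58.1, no filter, a mean of at least 5 CPM, a robust fit, a replicate block, each library left out and, added after seeing the data, the bias-adjusted quasi-likelihood fit.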

Additional observations from a re-analysis of the deposited data

Results flagged for a closer look

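The 12 genes below were singled out because the test of the difference between the knockout effects at MII and at GV passed for them (edgeR quasi-likelihood, adjusted p below 0.05). Vps39 had a log2 stage difference of 3.13. Values from -3.26 to -3.73 were found for Rbm28 (-3.26), Rps4x (-3.30), Mfap1b (-3.46), Mbl2 (-3.54), Got1 (-3.67) and Gm8730 (-3.73). Gm12463 had -4.07 and Rpl3 had -5.01. The fitted values of Ptgr1 (-7.46), Tep1 (-8.77) and Odr4 (-11.47) rest on 1, 0 and 0 reads in knockout MII and are not estimates of size. For Tep1 and Odr4 the bounds are 21.2-fold and 137-fold lower.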

How the results depend on the processing

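The number of called genes depended on most choices, and with 2 libraries per group the calls sit near the threshold. Against 1 higher and 12 lower genes, library totals gave 0 and 2, DESeq2 size factors 0 and 1, upper-quartile scaling 0 and 1, limma-voom 0 and 0, DESeq2 111 and 244, no filter 125 and 373 (25203 genes tested), a mean of at least 5 CPM 5 and 36 (8673 genes tested), and the bias-adjusted fit 5 and 24. The edgeR fits with library totals, DESeq2 size factors and upper-quartile scaling had 1574, 1729 and 1752 genes at an unadjusted p below 0.05. Without 1 library the counts ranged from 0 to 3 higher and 0 to 21 lower. Of the 12 lower genes, 9 were shared with the bias-adjusted fit, 12 with DESeq2 and 1 with DESeq2 size factors. The cause of these shifts was not tested, except that the 2 filters change the number of genes tested. The robust fit gave 1 and 12.

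The replicate block gave 1 higher and 17 lower genes. Deviations of same-numbered libraries correlated at 0.119, 0.0127 and -0.02 between control GV, knockout GV and knockout MII, and control MII columns carry no number, so the numbers were not taken to pair the libraries.

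Arid1a changed sign without control MII library a (0.0083), knockout GV library 2 (0.6896) or knockout MII library 2 (0.1549), within a range of -0.6743 to 0.6896 over the libraries left out, and no other named gene changed sign. Rpl3 was called in 15 of 18 alternatives and the other called genes in 4 to 8. Of 733 values of named genes over the alternatives, 546 kept direction and side of the threshold, 141 lost a call, 43 gained one and the 3 of Arid1a changed sign. Of 493 list medians, 472 moved by less than the spread between replicates and 21 by more, and 24, from 7 lists, had the other sign. Depth limits the values of genes near 0.0894 to 0.170 CPM, the level of 3 reads.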
